A study of Homo sapiens with 2 samples.

Results

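The genes for the protein components of the mitochondrial ribosome were examined in HEK293 cells. The members were the protein-coding genes of GENCODE v44 whose symbol is MRPL or MRPS followed by a digit and without a hyphen, together with DAP3, and this rule gave 79 of the 59026 genes matched in the data. The study asked how the RNA methyltransferase METTL8 acts on mitochondrial tRNAs, and rRNA-depleted total RNA was sequenced from Flp-In T-Rex HEK293 cells, an established line derived from human embryonic kidney that carries an integration site for inducible transgenes. The sequenced cells belonged to 1 untreated group of 2 libraries, replicate 1 and replicate 2, and the labels name neither a transgene nor a METTL8 deletion in them. Replicate 1 held 25158962 estimated counts and replicate 2 held 27143860.

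Mitochondrial ribosomes translate the few proteins that are encoded in mitochondrial DNA, all of them subunits of the oxidative phosphorylation complexes. Their ribosomal RNAs come from mitochondrial DNA, whereas every protein of the particle is encoded in the nucleus, made in the cytosol and imported. Many of these proteins descend from bacterial ribosomal proteins, and others were added during the evolution of mitochondria, so that the particle is richer in protein than the bacterial ribosome. In the systematic nomenclature used below, proteins with a bacterial counterpart have names such as uL3m or bL12m, and mitochondria-specific ones have names such as mL51 or mS34.

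Sequences in front of the genes are shown because the members belong to 1 particle but lie on 21 chromosomes. Promoter sequences, from 250 nt before to 50 nt after the annotated start site, were available from RefSeq (GRCh38.p14) for 70 of the 79 members. The members without an entry were MRPL2, MRPL10, MRPL13, MRPL15, MRPL21, MRPL23, MRPL35, MRPS28 and MRPS36. The letters of 3 motifs were searched on both strands: CCGGAAGT, which is bound by ETS factors such as GABPA, AAGATGGCG, which is bound by YY1, and the palindromic motif of NRF1, whose 10 letters are the capitals in the sequence of MRPL17 given after the others. These factors are known from other studies as regulators of nuclear genes for mitochondrial proteins. A gene was counted when any of its promoters held the letters, no matches of different motifs overlapped in a member, and a match is a description of the sequence only.

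The ETS letters were found in 12 of the 70 members with a promoter, or 17.1%, against 4.95% of the 27305 genes in the promoter table. In the orientation of the gene alone they were found in 5 members, or 7.14%, against 2.72%. The 27305 genes were not limited to protein-coding or expressed genes. For each of the motifs, the shares of the members and of these genes are therefore not matched. They were present in front of 10 of 44 large subunit genes and 2 of 26 small subunit genes. In the examples given here the motif is in capitals and the strand shown is that of the gene. MRPL3 and MRPL27 carried it in the orientation of the gene, while MRPL51 and MRPS34, the most abundant member of each subunit, carried it in the opposite orientation, so that the complement ACTTCCGG is seen. These sequences are at chr3:131502986-131503013 (minus strand) for MRPL3, chr17:50373175-50373202 (minus) for MRPL27, chr12:6493365-6493392 (minus) for MRPL51 and chr16:1773137-1773164 (minus) for MRPS34.
MRPL3: gtaaaacgcaCCGGAAGTgggtccggcg
MRPL27: cttttcgagaCCGGAAGTgagtgatcga
MRPL51: gcgctccaaaACTTCCGGcaggcggacc
MRPS34: tcttccggtgACTTCCGGccggaccgct

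The YY1 letters were found in 13 of the 70 members, or 18.6%, against 2.14% of all genes with a promoter. Before the start site alone they were found in 3 members, or 4.29%, against 0.784%. They were present in 10 large subunit genes and 3 small subunit genes. Of the 14 matches, 10 lay after the start site, and in 9 genes (MRPL22, MRPL38, MRPL46, MRPL50, MRPS10, MRPS18A, MRPS18B, MRPS24 and MRPS30) the ATG within the motif was the annotated start codon. Neither count was made for other genes, so they do not set the members apart. The examples are at chr15:88467362-88467390 (minus strand) for MRPL46, chr6:43687764-43687792 (minus) for MRPS18A, chr6:30617853-30617881 (plus) for MRPS18B, chr7:43869480-43869508 (minus) for MRPS24 and chr5:44808950-44808978 (plus) for MRPS30, with the motif in capitals. They are shown because these 5 genes, of both subunits, share the motif at the start codon.
MRPL46: gggagaacgaAAGATGGCGgcgcccgtaa
MRPS18A: taggtttttgAAGATGGCGgccctcaagg
MRPS18B: ggcgtacgtcAAGATGGCGgcgtctgtat
MRPS24: cgcttggcccAAGATGGCGgcctccgtgt
MRPS30: atcgcgggcaAAGATGGCGgcggccaggt

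The NRF1 letters were present in front of 1 member only, MRPL17 (chr11:6683402-6683431, minus strand), which is 1.43% of the members with a promoter against 1.52% of all genes.
MRPL17: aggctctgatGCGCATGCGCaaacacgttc

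MRPL38 and MRPL52 were the 2 members with both the ETS and the YY1 letters. The median level of the 12 members with the ETS letters was 50.5, against 37.7 for the 58 without, and that of the 13 members with the YY1 letters was 47.4, against 37.7 for the 57 without. These medians are over genes, which are not replicates, and no test was made.

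**Figure D1:**
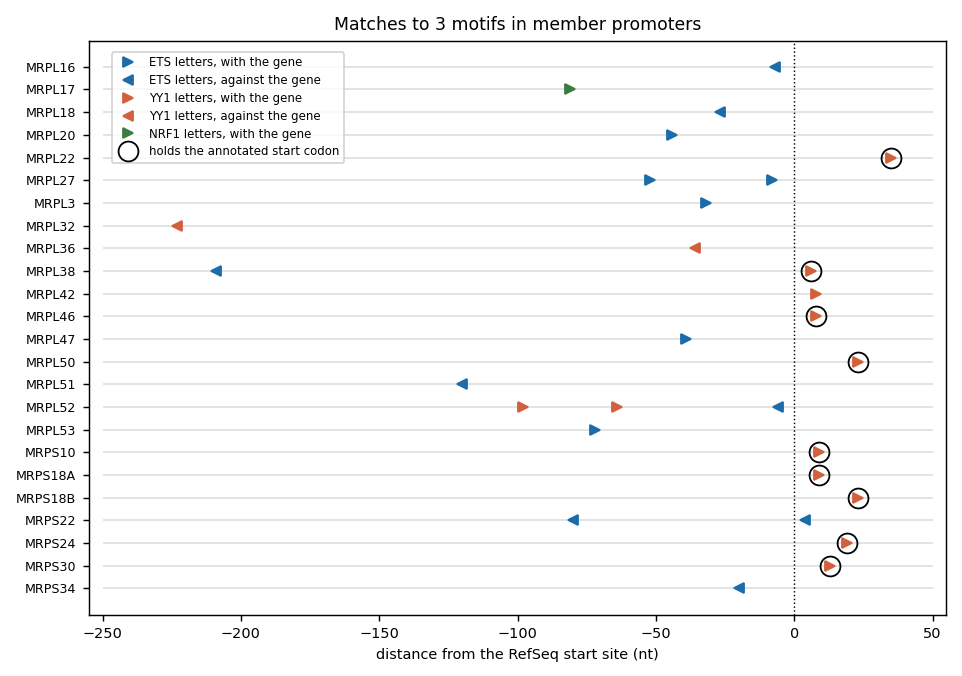
Position of each match to the ETS, YY1 and NRF1 letters in the promoters of members that have at least 1 match. The horizontal axis is the distance in nt from the RefSeq start site, the direction of a triangle is the orientation of the motif, and circles mark the 9 genes in which the YY1 letters hold the start codon; all but 1 of the ETS matches lie before the start site, and 10 of the 14 YY1 matches lie after it.

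To compare members with each other, the estimated counts of all transcripts of a gene were divided by transcript length and scaled to a sum of 1000000 in each library. This quantity is called the level in the following. For some comparisons that another measure changed, its value is given as well: the level from protein-coding transcripts alone, from an effective length (transcript length less 200 nt, at least 100 nt) or from the length of the canonical transcript of the gene. Each of these measures was scaled anew to 1000000 per library over the transcripts it used. Their values are therefore on other scales than the level and can be compared only within 1 measure. Values after ± are SDs over the 2 libraries (n = 2). A difference was called larger than the spread between the libraries when both gave the same direction and the means lay farther apart than their SDs added together, or, for a ratio, when its mean exceeded its SD. With 2 libraries of 1 group, the smallest two-sided p that an exact sign-flip permutation test can give is 0.5, so no p-values are given. As RNA of whole cultures was measured, fewer expressing cells and less RNA per cell cannot be told apart. The labels do not say whether the libraries came from separate cultures, and the SDs may therefore be technical.

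All 79 members were above 0 in both libraries, and the lowest value was 124 estimated counts. The members made up 0.418% ± 0.0132 of the estimated counts and 0.374% ± 0.0218 of the summed level. Their median level was 40.4 in replicate 1 and 37.3 in replicate 2, against 7.62 and 7.63 for the 15537 expressed protein-coding genes. The level was at least 10 in both libraries for 75 of the 79 members, compared with 40.6% of these 15537 genes. MRPL1, MRPL50, MRPS10 and MRPS17 were the exceptions. The members' own level was far below that of the 79 cytosolic ribosomal protein genes, whose median level was 1220.5 in replicate 1 and 1090.2 in replicate 2. The spread among the genes was much alike in both sets, with an SD of the log2 mean level of 1.01 for the members and 1.02 for the cytosolic set, and of 2.999 for the expressed protein-coding genes. Between the libraries, Pearson's r of the log2 levels across the 79 members was 0.968 and Spearman's rho was 0.946, which describes genes and not replicates.

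The large subunit was represented by 51 members and the small subunit by 27. MRPS30 (mL65) and MRPS18A (mL66) are known from structures of the particle as large subunit proteins despite their symbols and were counted there. MRPS36 was kept apart, because its product is now known as a component of the 2-oxoglutarate dehydrogenase complex. The median level of the large subunit members was 40.4 in replicate 1 and 38.0 in replicate 2, and that of the small subunit members was 40.9 and 33.9. The log2 ratio of large to small was -0.02 in replicate 1 and 0.16 in replicate 2 (mean 0.07 ± 0.13), so the subunits differed in opposite directions in the 2 libraries and by less than the spread. Without the division by length, the ratio was -0.65 ± 0.0565, with medians of 994 ± 62.2 normalised counts for the large subunit and 1562 ± 159 for the small subunit. The median length of the canonical transcript was 1175 nt for large subunit members and 1486 nt for small subunit members. When the 37 members with annotated pseudogenes were left out, 30 large and 12 small subunit genes remained and the ratio was -0.13 ± 0.0829. In the other direction, the ratio was 0.064 ± 0.0591 with the effective length and 0.29 ± 0.234 with the canonical length, both past the spread.

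Sums of the level weigh abundant genes more than medians do. Large subunit members took 60.3% ± 0.347 of the summed level, with 65.4% of the genes. The mean level of a large subunit gene was accordingly lower than that of a small subunit gene, with a log2 ratio of -0.31 ± 0.0209 that exceeded the spread. MRPS34 (mS34), a mitochondria-specific protein of the small subunit, alone held 20.2% ± 0.259 of the small subunit sum. Without it the log2 ratio of the means was -0.04 ± 0.0256, which was smaller but still exceeded the spread. The large subunit then took 65.6% ± 0.401 of the sum.

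Members with a bacterial counterpart and mitochondria-specific members had overlapping levels in both subunits. In the large subunit, the 30 genes with a bacterial counterpart had median levels of 40.8 and 40.3 in replicates 1 and 2, and the 21 mitochondria-specific genes had 36.7 and 35.2. In the small subunit the order was the other way round, with 36.8 and 26.6 for the 16 genes with a bacterial counterpart and 43.4 and 37.6 for the 11 mitochondria-specific genes. The ranges overlapped in each case. With the effective length, the small subunit medians were 24.3 and 23.7 for the genes with a bacterial counterpart and 27.2 and 22.3 for the others, so that their order changed between the libraries.

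**Figure D2:**
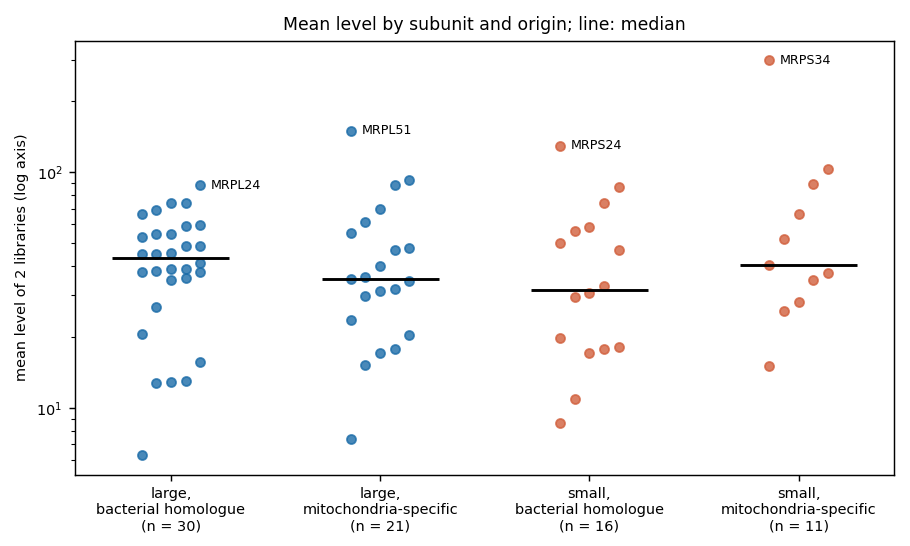
Mean level of each member over the 2 libraries (log axis), by subunit and by whether the protein has a bacterial counterpart; each point is a gene, the line is the median, and the highest gene of each class is named. The 4 classes overlap, and MRPS34 is the highest by this measure, whereas with protein-coding transcripts alone MRPS34 and MRPL51 do not differ beyond the spread.

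MRPS34 (chr16:1771890-1773150, minus strand) was the most abundant member, with a level of 310.2 in replicate 1 and 285 in replicate 2. It was above MRPL51, the next in the order, by more than the spread, and 98.9% of the expressed protein-coding genes were lower. With protein-coding transcripts alone, MRPS34 had a level of 444 ± 163 and MRPL51 of 456 ± 55.7, which did not differ beyond the spread. MRPL51 (mL51) led the large subunit at 167 and 133, and MRPS24 (uS3m, the counterpart of a bacterial protein at the mRNA entrance) was second in the small subunit at 124 and 135. MRPL51 and MRPS24 did not differ beyond the spread, and their order was exchanged between the libraries. In the small subunit they were followed by MRPS26 (mS26) at 92.8 and 112.5, DAP3 (mS29) at 100.1 and 77.6, and MRPS12 (uS12m, a protein of the decoding centre) at 80.1 and 92.8. DAP3 (chr1:155687960-155739010, plus strand) encodes a GTP-binding protein that was originally described as a mediator of cell death. In the large subunit, MRPL38 (mL38) had a level of 89.1 and 96.8, MRPL24 (uL24m) 93.8 and 82.1, MRPL37 (mL37) 88.8 and 87.0, and MRPL28 (bL28m) 72.6 and 75.7. These 4 were near each other, and only a part of such neighbouring positions was resolved: 5 of the 50 neighbouring pairs in the large subunit and 6 of the 26 in the small subunit differed beyond the spread.

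The lowest mean level was that of MRPL1 (uL1m, a component of the mobile L1 stalk; chr4:77862830-77952785, plus strand), with a level of 7.62 in replicate 1 and 5.00 in replicate 2. This was still above 45.1% of the expressed protein-coding genes. MRPL50 (mL50) followed at 8.75 and 5.95 and did not differ from MRPL1 beyond the spread. The lowest mean was that of MRPL50 with the effective length (3.66) and of MRPL19 with the canonical length (4.08). By the level, MRPL15 (uL15m) at 12.8 and 12.6, MRPL19 (bL19m) at 13.5 and 12.2 and MRPL35 (bL35m) at 15.2 and 10.8 were the next in the large subunit. In the small subunit the lowest levels were those of MRPS17 (uS17m) at 10.0 and 7.26 and MRPS10 (uS10m) at 12.2 and 9.57. They were followed by MRPS31 (mS31) at 16.1 and 13.9, MRPS5 (uS5m) at 18.3 and 15.8 and MRPS11 (uS11m) at 17.6 and 17.8. The highest member was 47.1-fold above the lowest by mean level, 23.8-fold within the large subunit and 34.5-fold within the small subunit. With protein-coding transcripts alone the range of the large subunit was 52.3-fold, and with the canonical length that of the small subunit was 51.8-fold, from MRPS11 to MRPS34. Over all pairs of the 79 members, 2423 of 3081, or 78.6%, differed beyond the spread. The same share over pairs of other genes was not computed, so this count does not set the members apart.

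**Figure D3:**
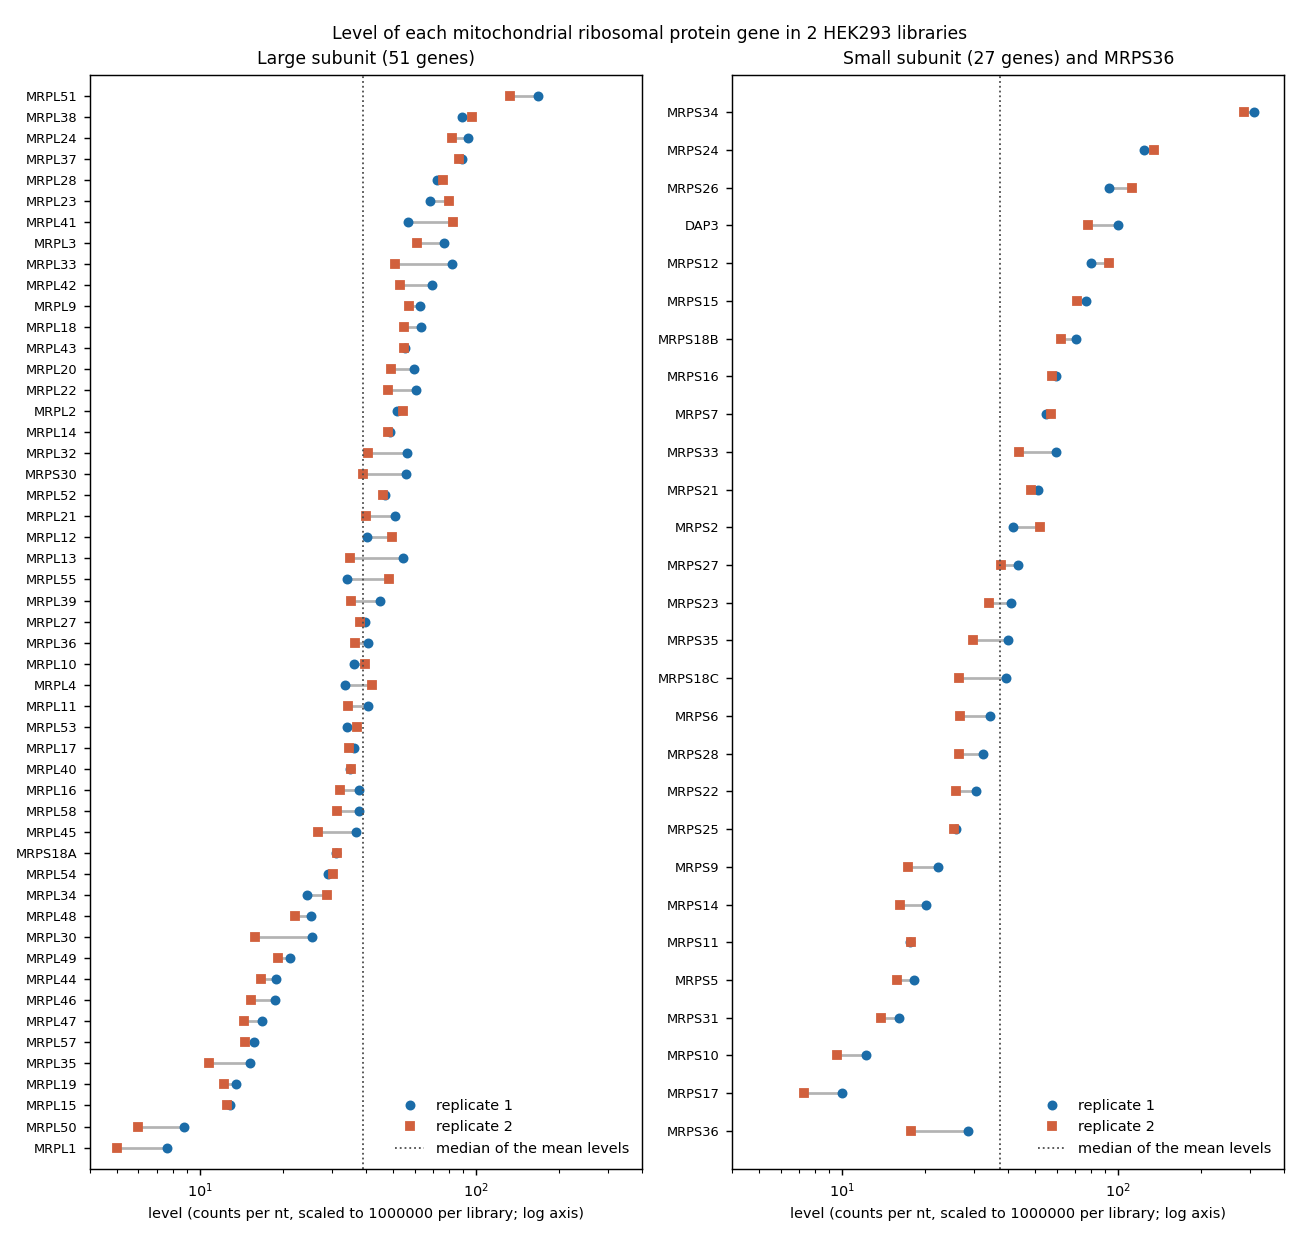
Level of each member in replicate 1 (circles) and replicate 2 (squares), on a log axis in counts per nt scaled to 1000000 per library; genes are ordered by mean level within the large subunit (left) and within the small subunit with MRPS36 at the bottom (right), and the dotted line is the median of the mean levels. MRPS34 and MRPL51 lead their subunits, and replicate 2 lies to the left of replicate 1 for most genes of low level.

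The stalk, which recruits translation factors to the ribosome, is built of MRPL10 (uL10m), MRPL11 (uL11m) and MRPL12 (bL12m). MRPL10 had a level of 36.2 and 39.6, MRPL11 40.8 and 34.5, and MRPL12 40.4 and 49.5. The stalk genes were within 1.19-fold of each other by mean level, but ranged over 2.16-fold with the canonical length and 2.85-fold with protein-coding transcripts alone, from MRPL11 to MRPL12 in both. In bacteria, the L12 protein is known to be present in several copies per ribosome. The 6 genes for proteins around the peptide exit tunnel ranged over 5.61-fold, and over 12.6-fold with protein-coding transcripts alone, where MRPL23 was the lowest. MRPL24 (uL24m) was the highest of them, MRPL23 (uL23m) had 68.0 and 79.7, MRPL22 (uL22m) 60.8 and 47.9, and MRPL17 (bL17m) 36.3 and 34.8. MRPL45 (mL45), which contacts the inner membrane, had 36.7 and 26.9, and MRPL47 (uL29m) was the lowest by the level at 16.9 and 14.5. With the canonical length the range was 6.54-fold, and MRPL22 was the lowest with a mean of 13.1.

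The central protuberance is the part at the top of the large subunit that contacts the tRNAs. Its 8 genes ranged over 5.47-fold by mean level, from MRPL46 (mL46) at 18.7 and 15.3 to MRPL38. Close to MRPL46 was MRPL48 (mL48) at 25.2 and 22.1. MRPL18 (uL18m) was high at 63.3 and 54.8, while MRPL27 (bL27m, which reaches towards the peptidyl transferase centre) had 39.7 and 38.0. The others were MRPL40 (mL40) at 35.1 and 35.4, MRPL55 (bL31m) at 34.1 and 48.4, and MRPL58 (mL62, a peptidyl-tRNA hydrolase related to release factors) at 37.7 and 31.5. Both ends of the range changed with the measure. With the canonical length it was 4.66-fold, from MRPL48 to MRPL18. With protein-coding transcripts alone it was 3.75-fold, from MRPL40 (38.4) to MRPL18 (144), and MRPL38 had 40.8 ± 17.4.

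MRPL3 (uL3m) and MRPS14 (uS14m) are the mitochondrial ribosomal proteins that the study followed on western blots. MRPL3 (chr3:131462212-131502983, minus strand) had a level of 76.4 in replicate 1 and 60.9 in replicate 2. MRPS14 (chr1:175010789-175023425, minus strand) had 20.1 and 16.2. MRPL3 was higher in both libraries, by 3.78-fold in mean level, and this exceeded the spread. The ratio was 6.23-fold with the canonical length and 15.9-fold with protein-coding transcripts alone. MRPS14, as described further on, was led by a transcript annotated for nonsense-mediated decay.

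MRPS18A, MRPS18B and MRPS18C are paralogues that descend from 1 bacterial protein, S18, and their products sit at different sites: MRPS18C (bS18m) at that of the bacterial protein, MRPS18B (mS40) elsewhere in the small subunit and MRPS18A (mL66) in the large subunit. MRPS18A had a level of 31.1 in replicate 1 and 31.5 in replicate 2. MRPS18B had 70.6 and 62.02, and MRPS18C had 39.2 and 26.5. Of their summed level, MRPS18B took 50.9% ± 1.09, MRPS18A 24.2% ± 2.97 and MRPS18C 24.9% ± 4.06. By this measure MRPS18B was above both paralogues beyond the spread, and MRPS18A and MRPS18C did not differ beyond it. The order changed with the measure. With protein-coding transcripts alone, the share of MRPS18B was 12.8% ± 6.34, and its level of 19.6 ± 10.99 was below those of MRPS18A (95.5 ± 4.85) and MRPS18C (35.5 ± 4.56) beyond the spread. With the effective length, MRPS18B (36.6 ± 4.34) and MRPS18C (38.2 ± 12.3) did not differ beyond the spread. MRPS18A was above MRPS18C beyond the spread with protein-coding transcripts alone (2.69-fold) and with the canonical length (3.14-fold), and below it with the effective length, where MRPS18C was 2.15-fold higher. The leading transcript of MRPS18B, described further on, has no defined coding sequence.

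MRPS30 (mL65) had a level of 55.8 and 39.1, and MRPS36 had 28.7 and 17.9. Of the 4 mitochondrial ribosomal proteins that have other symbols, GADD45GIP1 (mL64) had a level of 33.2 and 43.3, CHCHD1 (mS37) 38.1 and 34.1, AURKAIP1 (mS38) 82.7 and 103.9, and PTCD3 (mS39) 98.6 and 76.5, which lies within the range of the members. The 22 genes for factors that assemble the mitochondrial ribosome had a lower median level of 15.0 in replicate 1 and 14.4 in replicate 2. The 11 mitochondrial translation factor genes had 18.4 and 14.9. TUFM, the elongation factor that brings tRNAs to the ribosome, stood apart from these at 248 and 220.3. The mitochondrial ribosomal RNAs MT-RNR1 and MT-RNR2 are not comparable, as ribosomal RNA had been depleted.

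The libraries were then compared with each other, gene by gene, in the authors' normalised counts. None of the 79 members differed by more than 2-fold, compared with 5.23% of the 19110 genes that had 10 or more normalised counts on average. These 19110 genes include non-coding genes and reach down to a mean of 10, whereas the lowest member value in either library was 115 normalised counts. The 2 shares are thus not matched for count. No test was possible with 1 library on each side. More than 1.5-fold was reached by 2 members, or 2.53%, against 11.3% of 13992 protein-coding genes, whose means also reached down to 10. The 2 members were MRPS36, with 427 normalised counts in replicate 1 and 258 in replicate 2 (log2 difference -0.72), and MRPL33 (bL33m), with 1038 and 649 (-0.68). MRPL50 followed with 809 and 541 normalised counts (-0.58) and MRPL35 with 531 and 377 (-0.49). MRPL41 (mL41) had the largest difference in the other direction, with 914 and 1308 normalised counts (0.52).

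The direction of these differences was shared by most members. In replicate 2, 62 of the 79 were lower, or 78.5%, while 57.5% of the 13992 protein-coding genes were lower. The differences went along with the GC content of the canonical transcript. Across the 79 members, Pearson's r between GC content and the log2 difference was 0.901 and Spearman's rho was 0.892. The value of r was 0.906 for the 51 large subunit members, 0.874 for the 27 small subunit members and 0.891 without MRPS36 and MRPL41. All points come from the same pair of libraries, and genes are not replicates. In the other 13913 protein-coding genes, r was 0.532 and rho 0.762. The means of these genes reached down to 10 normalised counts, below every member. The coefficients are thus not matched for count and do not set the members apart.

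When all protein-coding genes tested were divided into 5 groups of equal size by GC content, the 14 members in the lowest group and the 15 in the next were lower in replicate 2 without exception. In the middle group 24 of 25 members were lower, in the next 8 of 13, and in the highest 1 of 12. Of the other protein-coding genes, 95.6%, 89.4%, 66.9%, 27.4% and 7.75% were lower, from the lowest to the highest group. The median log2 differences of the members in these groups were, from low to high GC content, -0.44, -0.39, -0.19, -0.02 and 0.22, beside -0.40, -0.25, -0.09, 0.12 and 0.33 in the other protein-coding genes. The SD of the difference among members was 0.251, and 0.109 after the median of genes within 1% of the same GC content had been subtracted. After this subtraction, the median of the members was -0.10, and 63 of 79 were below 0. The same count was not made for other genes. The genes used for the subtraction were matched for GC content alone, not for count or length. MRPS34 was then the farthest from genes like it at -0.40, as its own difference was -0.02 whereas genes of its GC content (64.6%) were higher in replicate 2. MRPL33 followed at -0.37, and MRPL34 (bL34m) was highest at 0.11. The median GC content was 50.8% for large and 46.6% for small subunit members, and the median log2 difference between the libraries was -0.17 and -0.27. What made the libraries differ by GC content was not tested. The relation to GC content was looked for after the values had been seen.

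**Figure D4:**
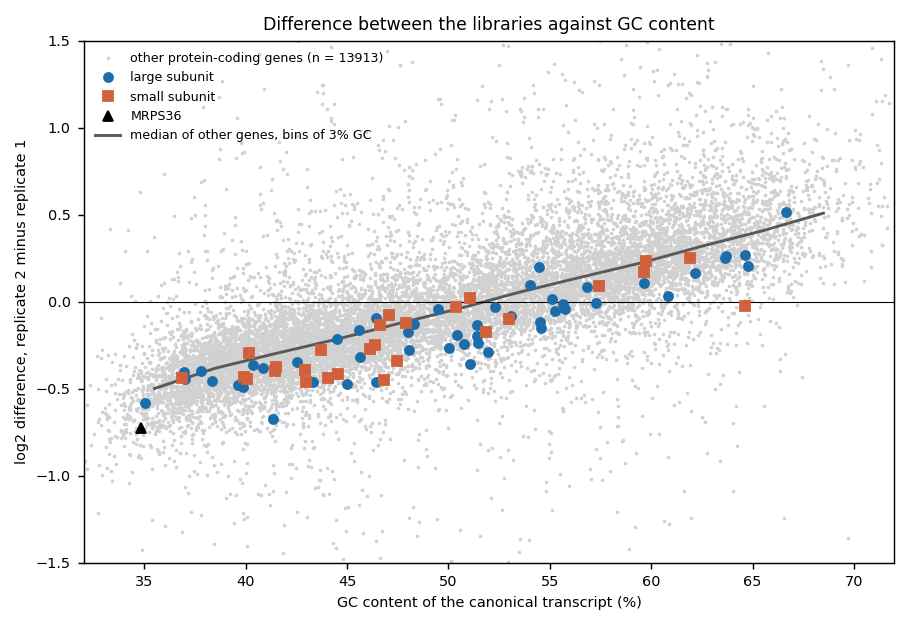
Log2 difference in normalised counts between replicate 2 and replicate 1 (1 added to each count) against the GC content of the canonical transcript, for large subunit members (circles), small subunit members (squares), MRPS36 (triangle) and other protein-coding genes (grey), with the median of the other genes in bins of 3% GC as a line; genes beyond the axes are not drawn. The members follow the line of the other genes, somewhat below it.

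The members were listed with 522 transcripts, and 71 members had several. In 60 of these 71 members, or 84.5%, the same transcript had the most counts in both libraries, compared with 79.3% of 14209 protein-coding genes with several transcripts. Protein-coding transcripts held 78.8% ± 2.14 of the members' normalised counts. Transcripts without a defined coding sequence held 9.15% ± 0.502, those with a retained intron 7.97% ± 1.10, and those annotated for nonsense-mediated decay 4.07% ± 0.539. The median share of protein-coding transcripts per member was 90.7% ± 0.134. This share was at least 90% in both libraries in 38 members, or 48.1%, against 52.3% of the 15537 expressed protein-coding genes. It was under 50% in both in 11 members, or 13.9%, against 9.73% of these genes.

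In 11 of the 79 members, or 13.9%, the leading transcript was not protein-coding in both libraries, compared with 8.91% of the 15537 expressed protein-coding genes. The most extreme was MRPL23, where MRPL23-207 (ENST00000462288.5), a transcript without a defined coding sequence, held 86.2% of the counts in replicate 1 (95% exact interval 84.0 to 88.1%) and 91.2% in replicate 2 (89.6 to 92.5%). Protein-coding transcripts of MRPL23 held 8.29% and 3.97%. In MRPS18B, MRPS18B-207 (ENST00000472229.1), also without a defined coding sequence, held 91.5% (90.3 to 92.5%) and 85.1% (83.6 to 86.4%). These intervals cover counting error only and not the division of reads between transcripts.

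Both of these models share most of their bases with the coding ones. MRPS18B-207 contained 98.6% of the bases of the canonical transcript MRPS18B-206, and 31 of its 1409 bases lay outside every protein-coding transcript of the gene. MRPL23-207 contained 92.9% of the canonical bases, with 25 of 659 outside. MRPL40-202 of MRPL40, with shares of 69.2% and 57.1%, contained 94.4% of the canonical bases, but 252 of its 954 bases lay outside the coding transcripts. In MRPL23 and MRPS18B the assignment to a coding or a non-coding model thus rested on few bases. Coding transcripts alone gave 155 normalised counts for MRPS18B in replicate 1 and 332 in replicate 2 (log2 difference 1.09), which made it the only member past 2-fold by this measure, whereas the sum of all its transcripts differed by -0.17.

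Other members had leading transcripts that shared less with the coding form. In MRPL17, MRPL17-202, with a retained intron, held 66.0% and 68.4% and contained 30.2% of the canonical bases. In MRPS14, MRPS14-201, annotated for nonsense-mediated decay, held 55.5% and 63.7% and contained 38.7% of them. MRPL11-206 of MRPL11, of the same type, held 58.3% and 47.1%. MRPL2 (uL2m, a protein near the peptidyl transferase centre) was led by MRPL2-205, with a retained intron, at 25.8% and 27.2%, and its protein-coding transcripts held 27.1% and 22.1%. MRPL43, MRPL53 and MRPS18C were led by a non-coding transcript as well, and MRPS11 by a different retained-intron transcript in each library.

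The leading transcript differed between the libraries in 11 members. MRPS34 was the most abundant of these. Its transcript MRPS34-203, which retains an intron, led in replicate 1 with 56.0% (95% exact interval 54.8 to 57.2%), and the protein-coding MRPS34-202 led in replicate 2 with 65.2% (64.1 to 66.3%). The gene total was 7029.9 and 6920.4 normalised counts. The model of MRPS34-202, like that of MRPS6-201, has another version in GENCODE v44 than in the tables. In MRPL38 the retained-intron transcript MRPL38-212 held 27.8% in replicate 1, and MRPL38-201, which is coding, held 29.4% in replicate 2. In MRPL21 and MRPL13 (bL21m and uL13m) and in MRPL52 (mL52) the exchange was between coding transcripts. MRPS6 (bS6m) changed from MRPS6-205, without a defined coding sequence and with 56.8%, to the coding MRPS6-201 with 63.1%. The remaining members in which the leader changed were MRPL34, MRPL55, MRPS11, MRPS28 and MRPS36.

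**Figure D5:**
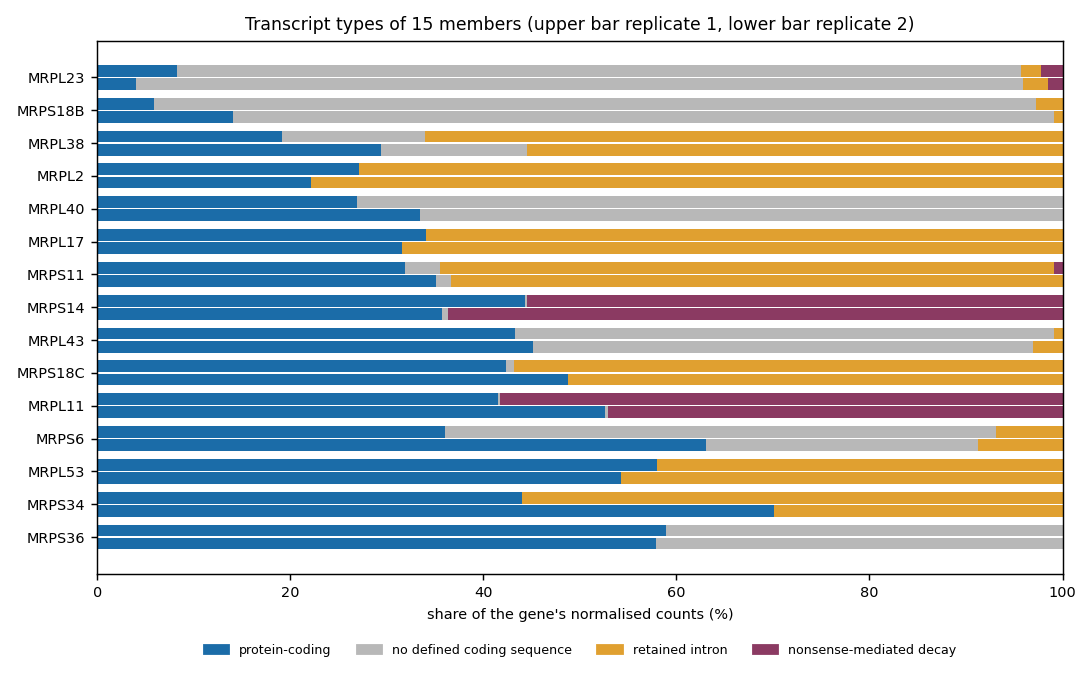
Share of each transcript type in the normalised counts of the 15 members whose leading transcript was not protein-coding in at least 1 library, with replicate 1 as the upper and replicate 2 as the lower bar of each gene. MRPL23 and MRPS18B consist mostly of transcripts without a defined coding sequence, and MRPS34 and MRPS6 change most, among these 15, between the libraries.

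The tables also listed copies and neighbours with which members can share reads. Pseudogenes named after a member were listed for 37 members, 83 genes in all, and 52 of these were at 0 in both libraries. Their sum was 512 estimated counts in replicate 1 and 557 in replicate 2. Most of it belonged to MRPS31, for which 5 genes with 4 pseudogene symbols were listed. They held 358 and 348 estimated counts beside 590.0 and 549 for MRPS31 itself, or 60.7% and 63.4% of the parent. Of these counts, 311 and 274 were in a gene named MRPS31P5 that is annotated as a lncRNA. The low level of MRPS31 is therefore uncertain. The copies of MRPL45 held 43.0 and 47.5 estimated counts, those of MRPS36 31.2 and 50.5, those of MRPS18C 21.7 and 12.1, and that of MRPL3 10.4 and 16.2. For MRPS36 this was 7.72% of the parent in replicate 1 and 18.1% in replicate 2.

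On the opposite strand, 41 members overlapped an annotated gene, or 51.9%, against 54.8% of 20033 protein-coding genes. The overlapping gene was protein-coding for 27 members, or 34.2%, against 23.8%. Whether reads had been counted by strand was not given in the sources used here, so reads from an overlap could belong to either gene. MRPL51 overlapped NCAPD2, whose normalised counts were 11494 in replicate 1 and 10954 in replicate 2 beside 2525 and 2022 for MRPL51. MRPS34 overlapped EME2, with 546 and 776 normalised counts. On the same strand, 24 members overlapped another gene, or 30.4%, against 33.9%. The readthrough gene URGCP-MRPS24 had 219 normalised counts in replicate 1 and 0.00927 in replicate 2, and the SLC5A3 gene, which overlaps MRPS6, had 3117 and 2422.

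A protein-coding neighbour on the opposite strand whose start site lay within 1000 nt upstream was found for 17 of the 79 members, or 21.5%, compared with 8.54% of 20033 protein-coding genes. In 1 pair both genes were members: the start sites of MRPL46 and MRPS11 lay 63 nt apart on chromosome 15, so that a large and a small subunit gene diverge from the same short region. Their levels were 18.7 and 17.6 in replicate 1 and 15.3 and 17.8 in replicate 2, which did not differ beyond the spread. MRPL46 was above MRPS11 beyond the spread by 3.85-fold with the canonical length and by 3.59-fold with protein-coding transcripts alone, and MRPS11 was 1.17-fold above MRPL46 with the effective length. The partners described next were chosen after their names had been seen. MRPS12 was 181 nt from SARS2, the mitochondrial seryl-tRNA synthetase, MRPL49 (mL49) 6 nt from FAU, which encodes a cytosolic ribosomal protein fused to a ubiquitin-like protein, and MRPL36 (bL36m) and MRPL47 were each 41 nt from a complex I subunit gene, NDUFS6 and NDUFB5. MRPL18 was 109 nt from TCP1, which encodes a subunit of the cytosolic chaperonin. The remaining partners were LRRC46, IGHMBP2, EME1, MITD1, ZNF189, SLC7A7, APBA3, SKA3, HELQ and a gene without a symbol (ENSG00000256646).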

How the data were processed

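Total RNA depleted of rRNA from untreated HEK293 Flp-In T-Rex cells had been converted to TruSeq libraries and sequenced in 2 libraries of 1 group. For each library the authors deposited a table with an RSEM estimated count per transcript and a normalised signal. In this signal, headed EB-Seq-Normalised, each estimated count had been divided by the size factor of its library (0.945 and 1.08). The submitters' processing notes name FastQC, STAR 2.7.0d, RSEM 1.3.3 and R 3.6.3. For the genome build and the use of strand in counting, the sources used here give nothing. A second deposited table per library, with METTL8 transcripts, was not used.

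Of 206696 listed transcripts, 202217 matched GENCODE v44 without version (96.9% and 96.8% of the counts), and 425 of the 522 member transcripts also had the same version. Estimated counts were divided by GENCODE v44 transcript length, without an effective length, scaled to 1000000 per library and summed per gene. Differences between the libraries were log2(normalised count + 1) over genes with a mean of at least 10. Expressed genes were protein-coding genes that had 1 or more normalised counts in each library. Intervals are exact (Clopper-Pearson) at 95%. The call of a 2-fold difference between the libraries and the division by length were tested on simulated data, and the other steps were not. Python 3.11.15, pandas 2.3.3, numpy 2.4.6, scipy 1.17.1 and matplotlib 3.10.9 were used.

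Members, gene lists, subunit assignments and motifs were chosen with earlier results of these data known. Named by rule were the genes of the functional lists, DAP3, MRPS30 and MRPS36, the 5 highest and 5 lowest members of each subunit, the 5 largest differences between libraries, the 5 most abundant members whose leading transcript differed, the 5 lowest protein-coding shares and the 5 highest pseudogene sums. Other genes were named after their values were seen. Alternatives were other length corrections, coding transcripts alone, each library alone, other member sets, folds, filters and pseudocounts.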

Additional observations from a re-analysis of the deposited data

How the results depend on the processing

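The log2 ratio of the large to the small subunit median, 0.07 ± 0.13, was reversed to -0.65 without division by length and to -0.13 without members that have pseudogenes. It was past its spread at 0.064 with an effective length (length less 200 nt, at least 100 nt) and at 0.29 with the canonical length per gene. Each library alone gave -0.02 to 0.16. The cause of these shifts was not tested. The large subunit's share of the summed level, 60.3%, was 57.2% without length, 60.8% with coding transcripts alone, 61.4% with the effective length, 57.9% with subunits taken from the symbols, 57.4% with the 4 proteins under other symbols, 59.8% without members that have pseudogenes and 65.6% without MRPS34, the last chosen after seeing the data. It was 60.1% to 60.6% in each library alone. With subunits taken from the symbols or with another set of members, the large subunit's share of the genes was no longer 65.4%. Without members that have pseudogenes, 30 large and 12 small subunit genes remained. The members' share of the library, 0.374%, was 0.418% without length, 0.832% among coding transcripts, 0.239% with the effective length and 0.348% with the canonical length, and 0.359% to 0.390% in each library alone. The SD of the log2 levels, averaged over libraries, was 1.02, and 1.23, 1.09 and 1.24 with coding transcripts, effective length and canonical length, and 0.972 to 1.06 in each library alone. The count past 2-fold between the libraries, 0, was 2 at 1.5-fold and 1 with coding transcripts alone. The median coding share was 90.4% per length, and 90.7% to 90.8% in each library alone. The MRPS18B share of the S18 paralogues, 50.9%, was 64.2% without length and 12.8% with coding transcripts, and 50.1% to 51.7% in each library alone. The ETS letters were in 5 members on the forward strand only (7.14% against 2.72% of all genes), and the YY1 letters in 3 before the start site only (4.29% against 0.784%).

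Of the 79 members, 19 moved in level by over 1.5-fold with the canonical length (18 lower) and 59 with the effective length (all 59 lower). With coding transcripts alone 66 moved (61 higher). Each measure was scaled anew, so these counts include the change of scale between measures. The members' share of the library, 0.374% by the level, was itself 0.348%, 0.239% and 0.832% with these measures. The same counts were not made for other genes, so they do not set the members apart. Pairs of members that differed beyond the spread, 2423, numbered 2557 and 2596 with coding transcripts alone and with the canonical length. What depth limits in the division of reads between transcripts was not tested. No paired analysis was possible because there was only 1 group.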
